A study of Mus musculus with 6 samples.

Results

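The interleukin-10 (IL-10) family of secreted cytokines and the receptor chains that bind them were described in CD45-negative cells sorted from mouse MB49 tumours. The set held 9 genes, taken by symbol from the 57186 genes of the deposited count table: 4 cytokine genes (Il24, Il19, Il20 and Il10) and 5 receptor chain genes (Il10ra, Il10rb, Il20rb, Il20ra and Il22ra1). All 9 were found. They were picked with the difference between the tumour groups already known, so their values in that contrast are given as a description, with no test. A filter on low counts left 5 of the 9, Il24, Il10, Il20rb, Il10ra and Il10rb, and Il24 passed it only through the group in which it was detected.

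MB49 is a bladder carcinoma line that was derived from a male mouse. Cells carrying the label CRISPR Y-KO (Y chromosome targeted) or CRISPR Y-Scr (control) were grown as subcutaneous tumours in C57Bl/6J mice and taken at 500 mm3. The CD45-negative cells, those without the common leukocyte antigen on their surface, were isolated by flow sorting, and poly-A RNA was sequenced from 3 libraries of each group. The labels give all libraries 1 batch label and do not give the age or sex of the mice, whether a group is 1 clone, or whether replicates came from separate animals, so the spread between libraries may be technical.

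IL-10 family cytokines are bound by paired class II cytokine receptor chains. IL-10 itself, a cytokine that restrains macrophages and dendritic cells, is bound by Il10ra, the chain that gives specificity, together with the shared chain Il10rb. IL-19, IL-20 and IL-24 are bound by Il20ra paired with Il20rb, and IL-20 and IL-24 also by Il22ra1 paired with Il20rb. These pairs act mainly on epithelial cells such as keratinocytes, and all of them signal through the kinases Jak1 and Tyk2 and the transcription factor Stat3.

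Library totals ran from 42040955 to 52951031 counts. Summed levels of the Y-linked genes Kdm5d, Uty, Ddx3y and Eif2s3y were 20.4 to 47.3 CPM (counts scaled to 1000000 in the adjusted library) in Y-KO and 296 to 344 CPM in Y-Scr, and all 4 genes were lower in Y-KO. Y-KO replicate 3 stood apart from replicates 1 and 2: its chi-square per gene over well-counted genes was 189 against each of them, while replicates 1 and 2 differed by 13.3. Y-Scr replicates 2 and 3 were also close, at 7.72, against 30.7 and 41.5 for replicate 1. The label CD45-negative was set against leukocyte transcripts. Ptprc, which encodes CD45, was present in every library, and 10 pan-leukocyte markers summed to 1360 to 2950 CPM in Y-KO against 3490 to 3600 CPM in Y-Scr, with none at 0. Of the 12 epithelial and urothelial markers, Krt8 and Krt18 had means of 1990 and 1250 CPM in Y-KO and 1500 and 928 CPM in Y-Scr. The urothelial genes Upk2 and Upk3a were at 0 in all libraries, and Upk1b had 41 counts over the series.

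Il24 (ENSMUSG00000026420, chromosome 1, 130809811 to 130815191, minus strand, GRCm39), which encodes a cytokine of wounded and inflamed skin, was counted in the Y-KO libraries alone. It had 134, 152 and 16 counts in Y-KO replicates 1, 2 and 3 and 0 counts in each Y-Scr library. Every Y-KO library was therefore above every Y-Scr library, and replicate 3 was far below the other Y-KO libraries. On the CPM scale the Y-KO libraries were at 2.76, 3.43 and 0.363, a mean of 2.19 ± 1.61 (SD, n = 3). A count of 0 over the Y-Scr group allows up to 0.0196 CPM (3 counts over the group, counting error only, each count taken as independent). On that reading Il24 was at least 112-fold higher in Y-KO. Against that same limit the single Y-KO libraries were at least 141-fold, 175-fold and 18.5-fold higher in the order of their numbers, and at least 157-fold without replicate 3. Of counts from 2 to 20, 80.3% to 82.3% per library were even, and so were all the Il24 counts. Counts may thus come in pairs, and for paired counts every limit from a count of 0 is higher and these folds are lower. Because these are bulk RNA values, fewer cells of a type and less RNA per cell cannot be told apart, here and for each gene below.

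Since Il24 was chosen on this contrast, its place among genes with counts spread in this way is a description only. Across the deposited table, a group of 38 genes had no counts in Y-Scr and counts in all 3 Y-KO libraries, and the median of their summed counts was 18.5. Il24 had the most counts of that group, 302, followed by the imprinted gene Rtl1 with 114. Only 3 of the 38 genes passed the low-count filter. The opposite pattern, counts in every Y-Scr library and none in Y-KO, was held by 525 genes, of which 75 passed the filter. The mean of Y-KO replicates 1 and 2 over replicate 3 was 8.53 for Il24, beside 3.07 for the summed neutrophil markers, 2.57 for the mast cell markers, 2.14 for the pan-leukocyte markers, 1.95 for the macrophage markers, 1.35 for the keratinocyte markers, 0.951 for the epithelial markers and 0.284 for the fibroblast markers. Across groups, the 9 keratinocyte markers did not move together. Krt14, a basal keratin that makes up nearly all of their summed CPM, rose from 14.4 to 51.3 CPM (log2 fold change 1.83, SE 0.17, edgeR adjusted p = 0.000329) and was the only 1 of the 3 tested markers to pass. Krt5, the usual partner of Krt14, was at 0.17 CPM in Y-KO against 0.816 CPM in Y-Scr (log2 fold change -2.25, SE 0.70, edgeR adjusted p = 0.0626). Over the tested markers the median was -0.23, and Krt1 and Lor were at 0 in all libraries. The summed markers were at 42.0 to 59.8 CPM in Y-KO against 14.1 to 18.9 CPM in Y-Scr. The part of these cells in the Il24 values was not tested.

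Il10 (ENSMUSG00000016529, chromosome 1, 130947582 to 130952711, plus strand), the founding member of the family, was detected in every library at a low level. Its counts were 69, 40 and 26 in Y-KO and 30, 46 and 76 in Y-Scr, or 1.42, 0.903 and 0.59 CPM against 0.548, 1.03 and 1.42 CPM. The groups overlapped over almost their whole range, and each held 1 library at 1.42 CPM. The means were 0.972 ± 0.421 and 1.00 ± 0.437 CPM (SD, n = 3 each), a log2 fold change of -0.04 with an SE of 0.53. That SE leaves room for differences well beyond the one measured, so equal levels are not shown. Per 1000 CPM of the summed macrophage markers, Il10 was 0.368 to 0.575 in Y-KO against 0.342 to 0.947 in Y-Scr, again with overlap. The groups also overlapped per 1000 CPM of pan-leukocyte markers, at 0.306 to 0.494 and 0.152 to 0.397. For each 1000 counts of Ptprc, Il10 had 4.86, 3.03 and 4.39 in Y-KO against 1.05, 1.79 and 2.36 in Y-Scr. Y-KO was also higher without overlap per T and NK, B, mast cell and neutrophil markers. Ptprc and these marker sums were themselves lower in Y-KO. The part of each cell type in the Il10 values was not tested.

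The other cytokines of the cluster were at or near absence. Il19 (ENSMUSG00000016524, chromosome 1, 130860393 to 130867852) had 6 counts in Y-KO replicate 1, 4 in Y-Scr replicate 3 and 0 elsewhere, 10 in all. Il20 (ENSMUSG00000026416, chromosome 1, 130834722 to 130839188) had 0 counts in all 6 libraries, which allows up to 0.0104 CPM over the series. Both encode epithelial and myeloid cytokines that share receptors with IL-24, and neither could be compared between groups at this depth.

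**Figure D1:**
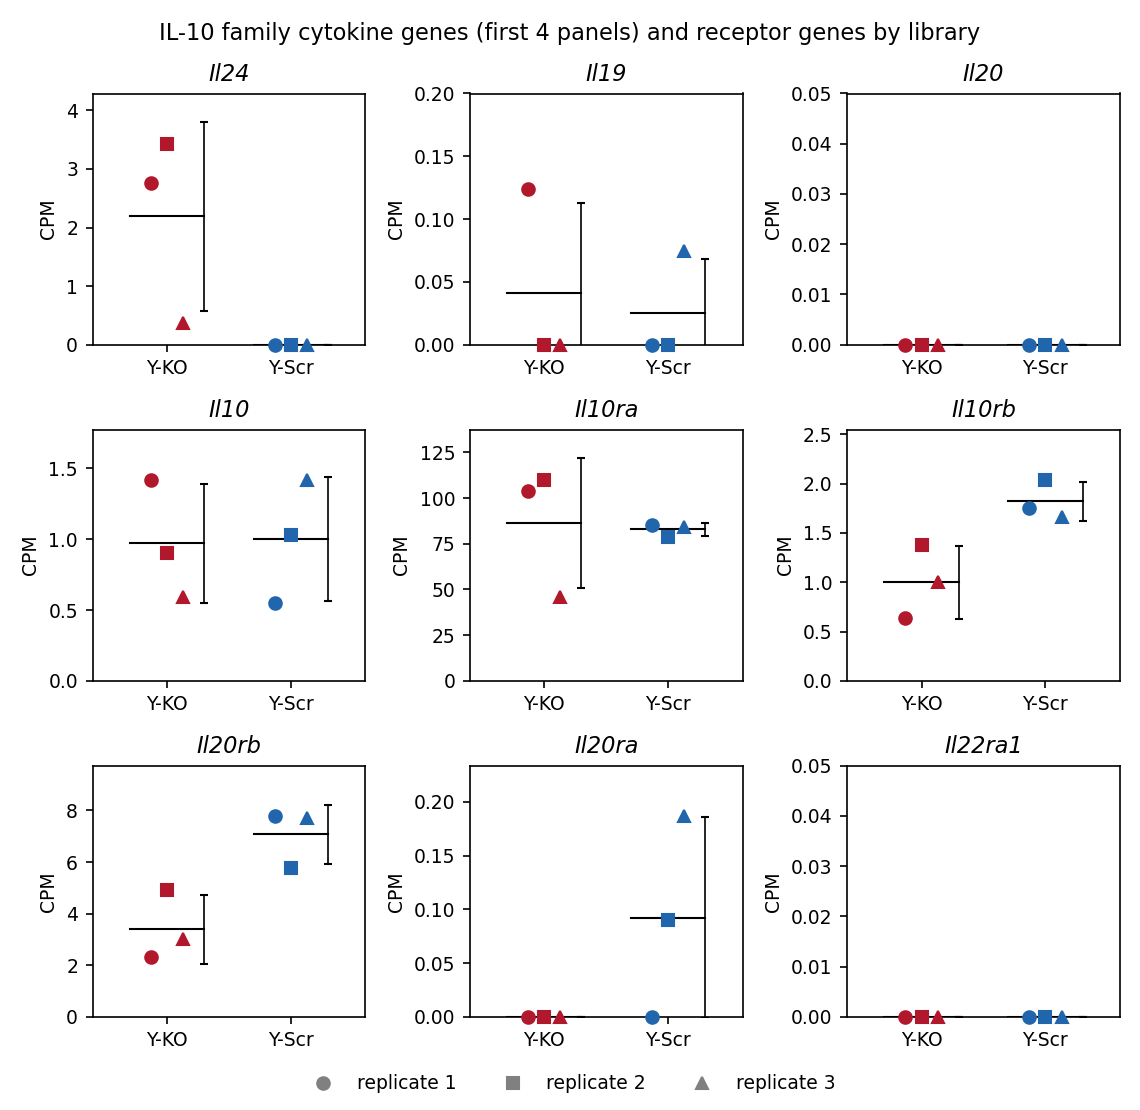
Each panel plots 1 gene, with CPM on the vertical axis and the 3 Y-KO and 3 Y-Scr libraries as points whose shape gives the replicate number; horizontal lines are group means and vertical bars ± 1 SD. Il24 has points above 0 in Y-KO alone, the Il10 and Il10ra groups overlap, and all Il20rb and Il10rb points of Y-KO lie below those of Y-Scr.

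Il10ra (ENSMUSG00000032089, chromosome 9, 45165135 to 45180447, minus strand), the IL-10 binding chain that leukocytes carry, was the member with the most counts. Y-KO libraries had 5026, 4883 and 2010 counts and Y-Scr libraries 4676, 3518 and 4504. In CPM these were 104, 110.0 and 45.6 against 85.5, 78.9 and 84.2. The Y-KO libraries lay on both sides of the Y-Scr range, with replicates 1 and 2 above it and replicate 3 below it. The means were 86.5 ± 35.5 and 82.9 ± 3.45 CPM (SD, n = 3 each), and the log2 fold change was 0.06 (SE 0.28). Without Y-KO replicate 3 it was 0.37 and past the threshold of the all-gene test.

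Y-KO replicate 3, the lowest library for Il10ra, was also the lowest for the pan-leukocyte, macrophage, T and NK cell, mast cell and neutrophil sums, but not for the B cell sum. Ptprc itself fell, from 567 ± 41.4 to 242 ± 93.1 CPM (SD, n = 3 each, log2 fold change -1.23, SE 0.26, edgeR adjusted p = 0.0157). For each 1000 counts of Ptprc, Il10ra had 354, 370.0 and 340.0 counts in Y-KO and 164, 137 and 140.0 in Y-Scr. The groups stood apart on this ratio, in which the Ptprc counts differed and the group means of Il10ra were close. Per 1000 CPM of the 10 summed pan-leukocyte markers Il10ra was 33.4 to 37.4 in Y-KO and 22.6 to 23.7 in Y-Scr. Per 1000 CPM of 12 summed macrophage and monocyte markers the order turned, with 36.1 to 45.0 in Y-KO and 51.4 to 56.1 in Y-Scr. The leukocyte lists themselves differed between groups: macrophage markers summed to 1260 to 2480 CPM in Y-KO against 1500 to 1600 CPM in Y-Scr (6 of 12 higher in Y-KO, 0 lower), and T and NK cell markers to 154 to 246 and 740.0 to 764 CPM (0 of 10 tested higher, 9 lower). B cell, mast cell and neutrophil sums were also below the Y-Scr range in each Y-KO library, at 20.8 to 23.9, 38.4 to 106 and 198 to 618 CPM against 87.5 to 96.7, 258 to 281 and 1240 to 1430 CPM. The part of each cell type in the Il10ra values was not tested.

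**Figure D2:**
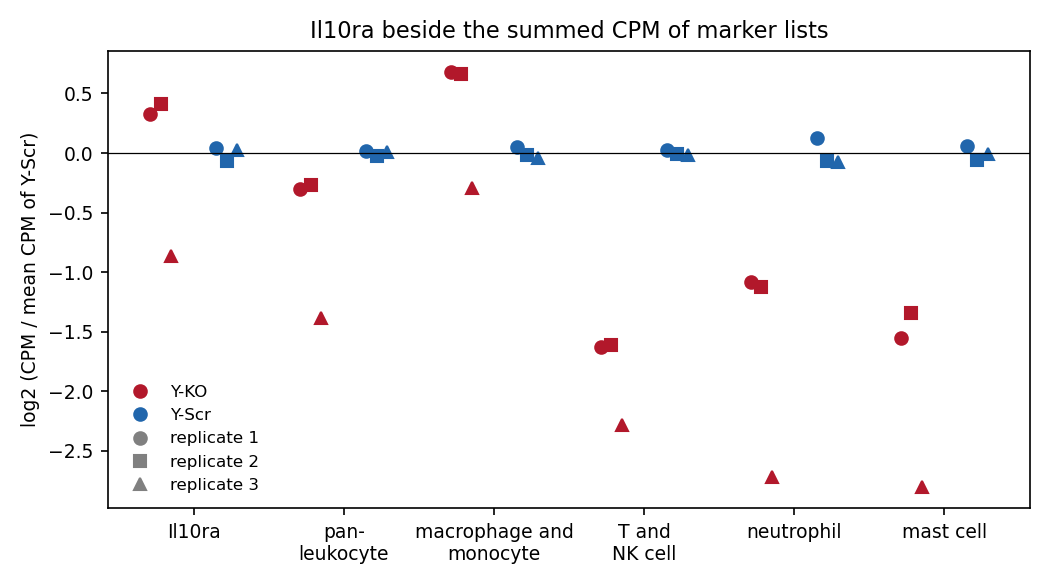
The vertical axis is log2 of the CPM of Il10ra, or of the summed CPM of the pan-leukocyte, macrophage and monocyte, T and NK cell, neutrophil and mast cell markers, over the Y-Scr mean; each point is 1 library (red Y-KO, blue Y-Scr, shape for the replicate). Y-KO replicate 3 is the lowest point of each of these columns, and the T and NK cell, neutrophil and mast cell sums of all Y-KO libraries are below those of Y-Scr.

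Il10rb (ENSMUSG00000022969, chromosome 16, 91203052 to 91222722, plus strand), the chain shared by IL-10 with other family cytokines, was low in every library. It had 31, 61 and 44 counts in Y-KO and 96, 91 and 89 in Y-Scr. The Y-KO libraries, at 0.64, 1.38 and 0.999 CPM, were all below the Y-Scr libraries, at 1.75, 2.04 and 1.66 CPM. The means were 1.00 ± 0.368 and 1.82 ± 0.198 CPM (SD, n = 3 each), and the log2 fold change was -0.86 (SE 0.39), which did not pass the all-gene threshold. This level is uncertain for a reason of annotation: 1712 of its 3808 exon bases (45.0%) are shared with Gm21970, a gene model on the same strand from 91180749 to 91222722 that had 0 counts throughout. The counting program leaves out reads that fall on several genes by default, so reads in those bases were not given to either gene. Over the remaining 2096 bases Il10rb was at 0.305, 0.657 and 0.477 CPM per kilobase in Y-KO and 0.837, 0.974 and 0.794 in Y-Scr. No exon base of the other 8 members is shared with another gene.

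The chains that bind IL-19, IL-20 and IL-24 were unequally present: Il20rb was counted in every library, Il20ra in Y-Scr replicates 2 and 3 alone and Il22ra1 in none. Their upstream sequences are printed because these chains form alternative receptor pairs. RefSeq promoter entries (GRCm38.p6, a build other than that of the counts) were found for 5 of the 9 members. The sequences are the 250 bases before the start site, 5′ to 3′ on the gene's strand, with capitals for matches on either strand to an AP-1 site (TGANTCA), a Stat site (TTCNNNGAA) or a GC box (GGGCGG); none of the matches overlap. The intervals are chr9:100486474-100486723 (minus strand) for Il20rb, chr10:19712337-19712586 (plus strand) for Il20ra and chr4:135727909-135728158 (plus strand) for Il22ra1.
Il20rb: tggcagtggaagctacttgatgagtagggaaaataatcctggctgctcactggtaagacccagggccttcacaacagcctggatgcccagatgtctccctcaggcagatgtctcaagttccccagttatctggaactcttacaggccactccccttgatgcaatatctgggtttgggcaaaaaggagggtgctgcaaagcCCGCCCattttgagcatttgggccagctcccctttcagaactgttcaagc
Il20ra: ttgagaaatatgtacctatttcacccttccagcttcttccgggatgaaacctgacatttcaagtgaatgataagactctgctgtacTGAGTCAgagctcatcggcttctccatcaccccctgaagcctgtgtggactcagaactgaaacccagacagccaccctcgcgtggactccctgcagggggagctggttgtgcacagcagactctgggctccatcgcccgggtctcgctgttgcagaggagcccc
Il22ra1: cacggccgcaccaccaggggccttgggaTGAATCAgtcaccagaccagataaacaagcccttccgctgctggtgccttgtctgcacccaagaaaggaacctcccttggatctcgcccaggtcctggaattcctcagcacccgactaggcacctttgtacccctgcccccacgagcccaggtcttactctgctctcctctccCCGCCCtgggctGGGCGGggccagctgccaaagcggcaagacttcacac
The sequence of Il20rb, the chain counted in every library, had 1 GC box match, 1 CpG pair and a GC content of 52.4%. The Il20ra sequence had 1 AP-1 match, 7 CpG pairs and a GC content of 55.2%, and that of Il22ra1 had 1 AP-1 match, 2 GC box matches, 9 CpG pairs and a GC content of 62.4%. Over 32851 promoter windows of the same length, 6.75% held an AP-1 match, 7.02% a Stat match and 32.7% a GC box match, with a median of 6 CpG pairs and a median GC content of 52.4%. A match is a run of letters and not a measured binding site.

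Il20rb (ENSMUSG00000044244, chromosome 9, 100339772 to 100368841, minus strand), the chain common to both IL-20 receptor types, had 112, 217 and 132 counts in Y-KO and 426, 257 and 412 in Y-Scr. The Y-KO libraries were at 2.31, 4.90 and 3.00 CPM and the Y-Scr libraries at 7.79, 5.77 and 7.70 CPM. The groups did not overlap, with Y-KO replicate 2 and Y-Scr replicate 2 nearest each other. The means of 3.40 ± 1.34 and 7.08 ± 1.14 CPM (SD, n = 3 each) differed 2.08-fold, with a log2 fold change of -1.06 (SE 0.30). Over the fits that left out 1 library each it ran from -1.42 to -0.85. The all-gene threshold was passed in 2 of the 6 such fits and missed without Y-KO replicate 1 (-0.85) and without any Y-Scr replicate. Per 1000 CPM of summed epithelial markers Il20rb was 0.705 to 1.47 in Y-KO and 2.36 to 3.19 in Y-Scr. Per 1000 CPM of pan-leukocyte markers the groups overlapped, at 0.801 to 2.20 and 1.65 to 2.16. They also overlapped per T and NK, mast cell and neutrophil markers. Per macrophage and monocyte markers Y-KO was lower without overlap, at 0.933 to 2.37 against 3.76 to 5.13. Per B cell markers it was higher, at 99.8 to 236 against 65.9 to 85.2. The epithelial sum is nearly all Krt8 and Krt18, simple-epithelium keratins that rose by 0.41 and 0.43 on the log2 scale (SE 0.08 and 0.07). Krt19 (2.82, SE 0.40) and Krt14 (1.83, SE 0.17) rose as well, so 4 of the 8 tested markers of that list rose and 1 fell. The remaining tested markers were lower in every Y-KO library than in any Y-Scr library, as Il20rb was. Of these, the adhesion gene Epcam fell (-1.81, SE 0.30, edgeR adjusted p = 0.00586), and Trp63 (-1.46, SE 0.48), Krt5 (-2.25, SE 0.70) and Cdh1 (-0.67, SE 0.28) did not pass. The part of these cells in the Il20rb values was not tested.

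Il20ra (ENSMUSG00000020007, chromosome 10, 19588318 to 19635801, plus strand), the partner of Il20rb for all 3 of these cytokines, had 0 counts in Y-KO and 0, 4 and 10 in Y-Scr. A count of 0 over the Y-KO group allows up to 0.0219 CPM, and the Y-Scr mean was 0.0922 ± 0.0935 CPM (SD, n = 3), with 1 Y-Scr library also at 0. Il22ra1 (ENSMUSG00000037157, chromosome 4, 135455483 to 135479451, plus strand), the other partner of Il20rb, had 0 counts in all 6 libraries, up to 0.0104 CPM. In the Y-KO libraries, where Il24 was counted, no count of either partner chain was found.

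Of the 5 members that could be tested, 2 passed the all-gene threshold (edgeR adjusted p under 0.05), Il24 higher and Il20rb lower in Y-KO, beside 16.1% of all 17837 genes tested (7.82% higher and 8.27% lower). The groups did not overlap for 3 of the 5, Il24, Il20rb and Il10rb, beside 37.7% of all genes tested (17.5% higher and 20.3% lower). The median log2 fold change of the tested members was -0.04, and that of all genes tested was -0.03. Since the members were chosen on this contrast, nothing is read from these counts.

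Levels were compared between members only per kilobase of exon. In Y-KO the order of mean CPM per kilobase was Il10ra at 24.7, Il24 at 1.58, Il20rb at 0.809, Il10 at 0.742, Il10rb at 0.264 and Il19 at 0.0359. In Y-Scr it was Il10ra at 23.7, Il20rb at 1.68, Il10 at 0.764, Il10rb at 0.478, Il20ra at 0.038 and Il19 at 0.0217. Il10ra led in both groups, 15.7 times above the next member in Y-KO and 14.1 times in Y-Scr, with no overlap between libraries. Neighbours whose libraries overlapped were Il24 with Il20rb and Il20rb with Il10 in Y-KO, and Il10 with Il10rb and Il20ra with Il19 in Y-Scr. In Y-Scr all Il20rb libraries were above all Il10 libraries. Among all genes tested, 87.5% had a lower mean per kilobase than Il10ra in each group, and 37.7% had a lower mean than Il24 in Y-KO. The Il10rb level here is over all its exon bases. Over the bases it shares with no other gene, its libraries were at 0.305 to 0.657 in Y-KO and overlapped those of Il10 (0.451 to 1.09), and in Y-Scr they were at 0.794 to 0.974 (mean 0.868) and also overlapped those of Il10 (0.419 to 1.08), with the order of the 2 means turned.

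**Figure D3:**
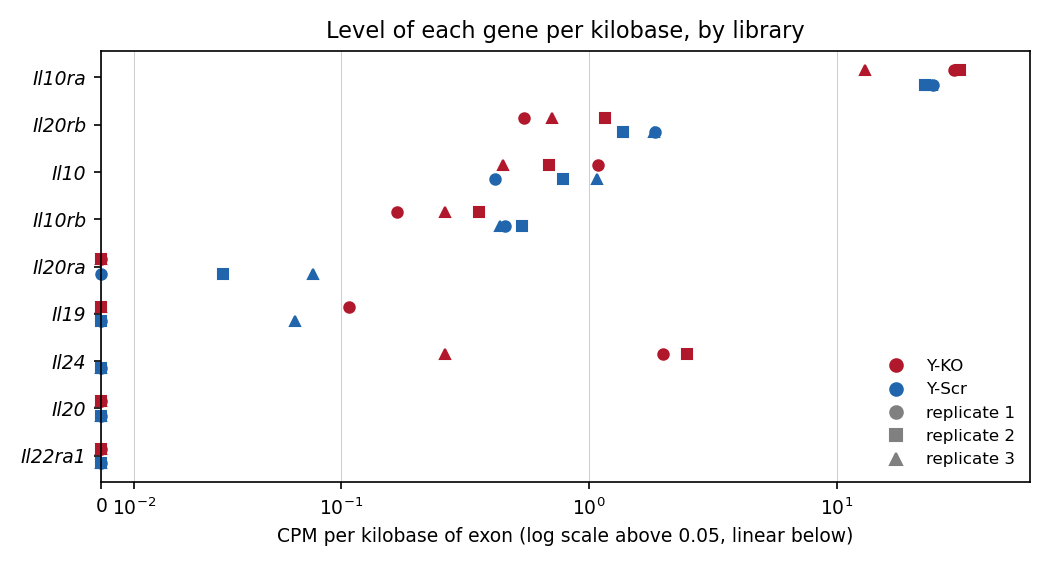
CPM per kilobase of exon is plotted for each member in each library, red for Y-KO and blue for Y-Scr, on an axis that is linear near 0 and logarithmic above; points of libraries at 0 lie on the left edge. Il10ra lies above every other member in all 6 libraries, and Il24 ranges from 0.262 to 2.48 in Y-KO.

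The genes most like each tested member across the 6 libraries were ranked by Pearson's r of log2 CPM among 11936 named genes (11937 for Il10). The 6 points share 2 groups and the same libraries, and the values are a description. For Il24 they were Rbm3 (1.000), Uhrf1 (0.999) and Gdf15 (0.999), among 711 genes with r over 0.95. With 0 counts in Y-Scr, the log2 CPM of Il24 there is set by the prior count, which favours genes with near-equal Y-Scr values. Rbm3 had a log2 fold change of only 0.31 (SE 0.08), with its call kept in 1 of the 6 fits that left out a library. Gdf15, a stress-responsive cytokine gene, was at 45.4, 45.8 and 29.1 CPM in Y-KO against 15.6, 15.6 and 15.4 CPM in Y-Scr. For Il10ra they were Itgb2 (0.999), Troap (0.997) and Actg1 (0.996). Itgb2 encodes a leukocyte integrin chain and is itself on the pan-leukocyte list, with 395, 405 and 184 CPM in Y-KO against 322, 304 and 319 CPM in Y-Scr, low in the same Y-KO library as Il10ra. For Il20rb they were Dcun1d4 (0.990), Nedd4l (0.990) and Tmem156 (0.989). For Il10rb they were Dixdc1 (0.993), Llgl2 (0.991) and Cand2 (0.988). For Il10, with 17 genes over 0.95, they were Atr (0.998), Usp25 (0.995) and Opa1 (0.985).

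Il24, Il20, Il19 and Il10 lie side by side on chromosome 1 over 142.9 kb. By edgeR with all 6 libraries and the low-count filter, no tested gene around them rose. Among all genes tested 7.82% rose and 8.27% fell, so nothing is read from the absence of a rise among so few neighbours. Of 40 other genes that lie within or reach into the 500 kb on either side, 18 had no counts and 15 could be tested. None of the 15 rose by edgeR, DESeq2 or limma-voom, with 1 higher at an unadjusted p under 0.05 by edgeR, and 3 fell by edgeR (6 at an unadjusted p under 0.05), 4 by DESeq2 and 3 by limma-voom. Their median log2 fold change was -0.42. Without Y-KO replicate 3, 1 rose and 5 fell, and without any 1 Y-Scr replicate 2 fell. Among the 15 tested genes Cd55, which encodes a membrane inhibitor of complement, had the lowest values relative to Y-Scr. It was at 0.97, 1.31 and 0.431 CPM in Y-KO against 10.5, 10.5 and 10.7 CPM in Y-Scr (log2 fold change -3.54, SE 0.35, edgeR adjusted p = 0.000517). Fcmr, the IgM Fc receptor gene of B cells, ends 1.28 kb from Il24 and fell from 1.89 ± 0.212 to 0.277 ± 0.0456 CPM (SD, n = 3 each; log2 fold change -2.75, SE 0.42, edgeR adjusted p = 0.00359). B cell markers, as given above, were lower in Y-KO as well, and their part in Fcmr was not tested. Rassf5, which encodes a Ras effector of lymphocyte adhesion, fell by 0.97 on the log2 scale (SE 0.20, edgeR adjusted p = 0.0138), a call that did not hold without any 1 of the Y-Scr replicates (edgeR adjusted p from 0.0516 to 0.0693). Mapkapk2, a stress kinase gene 28.7 kb from Il10, had a log2 fold change of 0.10 (SE 0.11).

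**Figure D4:**
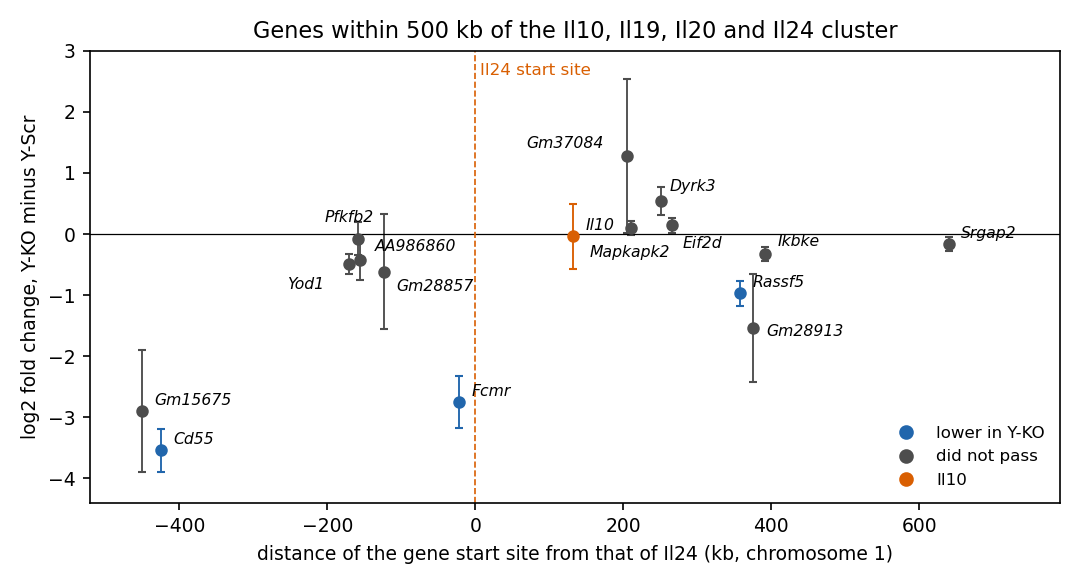
The log2 fold change (Y-KO minus Y-Scr, bars ± SE) of each tested gene near the cluster is plotted against the distance in kilobases of its start site from that of Il24, marked by the dashed line. Blue marks the 3 genes that fell, Cd55, Fcmr and Rassf5; grey marks those that did not pass, and orange marks Il10; Il24 has no point because its Y-Scr counts are 0.

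The remaining genes of the pathway were taken as lists. The counts below stand beside 7.82% of all genes tested that rose and 8.27% that fell, and no list was tested as a set. Other IL-10 family cytokines (Il22, Iltifb, Ifnl2 and Ifnl3) had too few counts to test: Ifnl2, an interferon-lambda gene, had 12 counts in Y-KO replicate 2 and 0 elsewhere, Il22 had at most 2 counts in a library, and the others had 0. Of the other class II receptor genes, 6 of 7 were tested, 0 rose and 1 fell (0 and 3 at an unadjusted p under 0.05 by edgeR, 0 and 2 by DESeq2, 0 and 1 by limma-voom), with a median log2 fold change of -0.22. The 1 was Ifngr1, the ligand-binding chain for interferon-gamma, at 218 ± 55.3 CPM in Y-KO against 349 ± 13.2 CPM in Y-Scr (SD, n = 3 each; log2 fold change -0.68, SE 0.16, edgeR adjusted p = 0.0215). That call was kept only without Y-KO replicate 3 and was lost without any other library (edgeR adjusted p from 0.073 to 0.111).

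Among the 11 receptor-proximal kinase and Stat genes, 1 rose, 5 fell and 5 did not pass, with a median log2 fold change of -0.31. Jak1, the kinase bound by the ligand-binding chains, was at 165 ± 12.7 CPM in Y-KO against 269 ± 9.86 CPM in Y-Scr (SD, n = 3 each; log2 fold change -0.70, SE 0.08, edgeR adjusted p = 0.00129). Stat4, a factor of T and NK cells, fell from 17.6 ± 0.212 to 5.36 ± 1.80 CPM (log2 fold change -1.72, SE 0.25, edgeR adjusted p = 0.00276), beside the lower T and NK cell markers, whose part was not tested. Both calls were kept without each library in turn. With the close library pairs summed, the call of Stat4 was kept (edgeR adjusted p = 0.0458) and that of Jak1 was lost (edgeR adjusted p = 0.0542). Jak3, the kinase of lymphocyte cytokine receptors, fell (-0.55, SE 0.09), with the call lost without Y-Scr replicate 3 (edgeR adjusted p = 0.0552). Stat5a fell too (-0.59, SE 0.11), with the call lost without Y-Scr replicate 2 (edgeR adjusted p = 0.0661). In fits without Y-KO replicate 1 or 2 or Y-Scr replicate 2 or 3, 0 genes of the list rose and 3 to 4 fell, and without Y-KO replicate 3, 2 rose and 6 fell. Stat3, the main factor of IL-10 family receptors, stood at -0.24 on the log2 scale (SE 0.08, edgeR adjusted p = 0.0915) and Tyk2, the kinase bound by the shared chains, at -0.25 (SE 0.11, edgeR adjusted p = 0.172). Of 16 Socs and phosphatase feedback genes, 0 rose and 1 fell (1 and 2 at an unadjusted p under 0.05 by edgeR, 1 and 1 by DESeq2 and by limma-voom). Pias3, an inhibitor of Stat3, was at the edge of the threshold (log2 fold change -0.60, SE 0.18, edgeR adjusted p = 0.04998), a call that did not hold without any library other than Y-KO replicate 3 (edgeR adjusted p from 0.143 to 0.178); without Y-KO replicate 3, 3 of the list rose and 3 fell. Socs3, the feedback inhibitor that Stat3 induces, was at 254, 264 and 123 CPM in Y-KO against 258, 261 and 238 CPM in Y-Scr (log2 fold change -0.24, SE 0.25).

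Lists of genes known to respond to these cytokines held calls in both directions, as did all genes tested (7.82% rose and 8.27% fell). No response to a cytokine is read from these counts. Of the IL-10 response genes of macrophages, 19 of 20 were tested, 4 rose, 2 fell and 13 did not pass, with a median log2 fold change of 0.18. Fcgr1, a high-affinity IgG receptor gene that is also on the macrophage marker list, was at 93.8, 96.2 and 38.9 CPM in Y-KO against 22.1, 18.6 and 24.1 CPM in Y-Scr (log2 fold change 1.82, SE 0.31, edgeR adjusted p = 0.006). Arg1, arginase of macrophages, was higher by 1.85 (SE 0.41, edgeR adjusted p = 0.019) and Stab1, a scavenger receptor gene, by 0.59 (SE 0.13, edgeR adjusted p = 0.0179). Arg1 lost its call without any library but Y-KO replicate 3 (edgeR adjusted p from 0.0596 to 0.0905), and Stab1 without Y-KO replicate 1 or 2 or Y-Scr replicate 2 or 3 (0.0583 to 0.089). Lrg1, an acute-phase glycoprotein gene, fell (-1.38, SE 0.30, edgeR adjusted p = 0.0168), with the call lost without any Y-Scr replicate (0.0518 to 0.0782). Cd163 of the same list fell as well (-1.49, SE 0.35, edgeR adjusted p = 0.0235). The macrophage markers, given beside Il10ra, had 6 of 12 higher and 0 lower, with a median log2 fold change of 0.76. Fcgr1 and Mrc1 are on both lists, and the part of macrophages in these values was not tested. Without Y-KO replicate 3, 10 of the IL-10 response genes rose and 4 fell, and without any other library 1 to 2 rose and 0 to 2 fell.

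Of 27 epithelial response genes of the IL-20 and IL-22 receptors, 18 were tested, 3 rose, 4 fell and 11 did not pass, with a median log2 fold change of 0.23. Lbp, which encodes a lipopolysaccharide carrier, fell from 18.5 ± 1.33 to 2.37 ± 1.51 CPM (SD, n = 3 each; log2 fold change -2.96, SE 0.38, edgeR adjusted p = 0.00181). Krt16, a keratin of activated keratinocytes, rose from 0.806 ± 0.148 to 2.73 ± 0.212 CPM (log2 fold change 1.76, SE 0.32, edgeR adjusted p = 0.00807), beside the keratinocyte markers given with Il24, of which Krt14 alone passed. Pdgfa, a growth factor gene, rose by 0.54 (SE 0.09, edgeR adjusted p = 0.00508). Mmp9, a gelatinase gene, fell (-0.80, SE 0.15, edgeR adjusted p = 0.00814), with the call lost without Y-Scr replicate 2 or 3 (0.0503 to 0.0543). The other genes that fell, S100a8 and S100a9, are also on the neutrophil marker list, which was lower in Y-KO as given above. Without Y-KO replicate 3, 5 of the list rose and 5 fell, and without any other library 2 rose and 1 to 3 fell.

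Among 16 stress and apoptosis genes named for IL-24, 5 rose, 1 fell and 10 did not pass, with a median log2 fold change of 0.20. With library size alone as the scaling, 1 rose and 1 fell. Without Y-KO replicate 3, 9 rose, and without Y-KO replicate 2, Y-Scr replicate 2 or Y-Scr replicate 3, 0 rose. Bcl2, the apoptosis inhibitor, fell from 76.5 ± 6.36 to 24.5 ± 1.67 CPM (SD, n = 3 each; log2 fold change -1.65, SE 0.10, edgeR adjusted p = 5.83e-05). Atf4, a factor of the integrated stress response, rose by 0.52 (SE 0.11), and Bcl2l1, another apoptosis inhibitor, by 0.41 (SE 0.09). Both calls were lost without Y-Scr replicate 2 or 3 or Y-KO replicate 2, and that of Atf4 also without Y-KO replicate 1 (edgeR adjusted p from 0.0511 to 0.112). Of 30 factors that act on Il10 or Il24 transcription or mRNA, 29 were tested, 4 rose, 3 fell and 22 did not pass, with a median of -0.07 (3 rose and 7 fell with library size alone). Without Y-KO replicate 3, 10 of them rose and 5 fell, and without any other library 2 to 3 rose and 1 to 3 fell. The AP-1 gene Jund rose from 65.8 ± 3.72 to 125 ± 17.2 CPM (log2 fold change 0.93, SE 0.11, edgeR adjusted p = 0.00137). Its relative Jun rose from 234 ± 3.97 to 420.0 ± 59.6 CPM (log2 fold change 0.84, SE 0.11, edgeR adjusted p = 0.00169). Ets1, a factor of lymphoid and stromal cells, fell from 198 ± 16.7 to 122 ± 6.93 CPM (log2 fold change -0.70, SE 0.09, edgeR adjusted p = 0.00205). Cebpb, a myeloid and stress factor gene, rose by 0.75 (SE 0.14, edgeR adjusted p = 0.00967), a call that did not hold without Y-Scr replicate 2 or 3 (0.0541 to 0.0563).

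**Figure D5:**
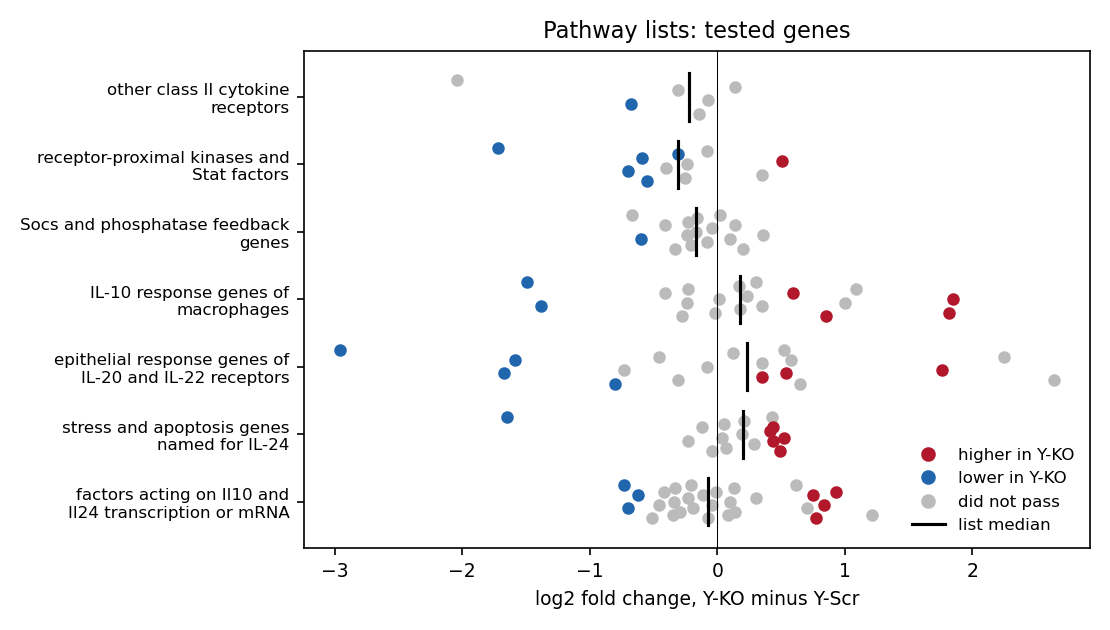
Each point is the log2 fold change (Y-KO minus Y-Scr) of 1 tested gene of a pathway list, with a vertical line at the median of each list and colour marking genes that rose, fell or did not pass. List medians run from -0.31 for the kinase and Stat genes to 0.23 for the epithelial response genes, with genes on both sides of 0 in each list.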

How the data were processed

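The authors deposited raw read counts per gene, made with featureCounts 1.5.3 on the Ensembl release 112 annotation of GRCm39, per the file headers, with no further option. By default that version ignores strand, counts single reads and leaves out reads on several genes. Of counts from 2 to 20, 80.3% to 82.3% per library were even. FastQC 0.12.1, MultiQC 1.13, Trimmomatic 0.39 and STAR 2.5.2b are named in the submitters' processing notes. Symbols were matched by gene ID from an older mouse annotation (51880 of 57186, 90.7%); coordinates are those deposited, except RefSeq promoters (GRCm38.p6).

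Counts were tested with edgeR 4.0.16 (R 4.3.3): filterByExpr (minimum count 10, minimum total 15), TMM, group alone, quasi-likelihood test, Benjamini-Hochberg over 17837 genes, called under 0.05. CPM uses TMM-adjusted library sizes. Correlations used log2 CPM with a prior count of 2, over tested genes with a symbol and a mean of at least 1 CPM. Members are set against the all-gene threshold as a description, also where a library is left out; no p-value is given for them, since this contrast chose them. The fitting step was tested on simulated data.

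The members, lists and tests were chosen with earlier results of these data known. Named genes were all members, up to 4 called genes with the smallest p of each list and of the neighbourhood, and the 3 most correlated genes of each tested member; Stat3, Tyk2, Socs3, Cd163, S100a8, S100a9, Mapkapk2, Ifnl2, Il22, Rtl1 and single marker genes were named after their values were seen. Some list genes are counted but not reported here by name. Muc4 and Rps6ka4 of the lists matched no symbol. Since the labels name no molecular identifiers, reads may repeat a molecule, and limits from a count of 0 cover counting error only. Those limits also take each count as independent, which the share of even counts leaves in doubt. Alternatives were DESeq2 1.42.0, limma-voom (limma 3.58.1), other scalings and filters, halved counts, the replicate number as a block, close library pairs summed, and leaving out each library. Plots used matplotlib 3.10.9.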

Additional observations from a re-analysis of the deposited data

How the results depend on the processing

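The members were chosen on this contrast, so their counts here describe the settings and are no sign of stability. Limma-voom, a filter of 1 CPM in 3 libraries and halved counts each gave 0 members higher; in the last pair of settings Il24 was not tested. The replicate block gave 0 members lower. Summing the close pairs left 0 members higher and 0 lower, 136 and 360 genes in all, and 1 and 3 list genes. With library size alone, 730 genes rose and 2255 fell, against 1395 and 1476 with TMM, the median log2 fold change moved from -0.03 to -0.17, 10 list genes rose and 27 fell (17 and 17 with TMM), and 5 neighbours of the cluster fell; without a low-count filter 1 neighbour rose. Leaving out each library gave 461 to 3029 genes higher and 560 to 3364 lower, 1 to 2 members higher and 0 to 1 lower, 5 to 38 list genes higher and 6 to 25 lower, and 0 to 1 neighbours higher and 2 to 5 lower; the highest counts came without Y-KO replicate 3. Actg1 had a log2 fold change of 0.16 without Y-KO replicate 3, -0.11 without Y-KO replicate 2 and -0.01 with all libraries. Deviations of same-numbered libraries had correlations of -0.008, 0.005 and -0.014, so the numbers were not taken to pair the libraries, and not every library correlated best with its own number; with the replicate block 946 genes rose and 1120 fell. Of 25 calls among list genes and neighbours picked by the naming rule, 12 were kept without each library in turn and 6 with close pairs summed. Those 6 were Lbp, Jund, Stat4, Bcl2, Cd55 and Fcmr. The calls of Jak1, Jun, Ets1, Krt16, Pdgfa and Fcgr1 were kept without each library but lost with the pairs summed. Leaving out 1 library of a close pair keeps the other, so those fits do not show independent replication. The cause of these changes was not tested. Depth limits Il19, Il20, Il20ra and Il22ra1, which could not be compared.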
